A study of Mus musculus with 1824 samples.

Results

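Plates 7 and 8 of the E8.5 embryos are a pair of 96-well plates of single cells, compared here for their ectoderm, mesoderm and caudal progenitors. The members are the cells with at least 100000 reads counted on genes, which were 88 of the 96 wells of plate 7 and 88 of the 96 wells of plate 8, or 176 of the 1824 cells of the series. The cells came from chimaeric mouse embryos, made by injecting Tet triple knockout embryonic stem cells that carry an H2B-tdTomato label into wild-type C57BL/6J blastocysts and transferring these to CD1 recipients. The labels give every sample the strain CD1 and the tissue E8.5 embryo, and name the plate and well. According to the methods of the study, cells of the chimaeras were stained for KDR and CD41, and live singlets of both the knockout and the host cells were sorted as CD41+, KDR+, double-positive or double-negative. Neither the sort gate nor the genotype of plate 7 or plate 8 is given in the labels, and the number of embryos behind each plate is not given in the sources used here. Each plate is therefore 1 sample, the cells of a plate are not replicates of a condition, and no test between the plates was made. Genotype, gate, embryo and plate cannot be told apart in this comparison.

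At this stage the neural plate closes into a tube of Sox2-expressing cells, the flanking surface ectoderm expresses Wnt6 and keratins, and the tail end of the embryo keeps a pool of progenitors that express Cdx and T genes. These caudal progenitors feed both the spinal cord and the presomitic mesoderm, which is cut into somites marked by Meox1. Lateral plate mesoderm, the allantois and the amnion lie further out and share genes such as Hand1, Postn and Bmp4, while pharyngeal and cardiac mesoderm lies in front of the trunk.

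The 88 cells of plate 7 had a median of 487097 counted reads and those of plate 8 a median of 557502. A median of 7606 genes was detected per cell on plate 7 and 7860 on plate 8, and the median share of mitochondrial reads was 0.782% and 1.12%. Wells in columns 11 and 12 stood apart on both plates. The median share of reads on ribosomal protein genes there was 11.96% on plate 7 (14 cells) and 11.7% on plate 8 (16 cells), against 6.95% and 6.32% in columns 1 to 10. The same wells yielded fewer genes, with medians of 6455 and 6211 against 7915 and 8177. The 6 other E8.5 plates showed this too, with median ribosomal shares of 8.33% to 16.5% in columns 11 and 12 and of 5.47% to 8.08% elsewhere on all 8 plates. The study left a subset of wells without the methylase step, but the labels do not name these wells. The count over all genes and the lateral plate share and list count are therefore given with and without columns 11 and 12. Ratios within a class are given only with them. The Tet genes, which the injected cells lack in function, were measured on both plates. Tet1 was at 49.8 on plate 7 and 83.2 on plate 8, Tet2 at 22.7 on plate 7 and 23.04 on plate 8, and Tet3 at 38.9 on plate 7 and 39.4 on plate 8, in reads of the gene per 1e+06 counted reads of the plate (CPM). Total reads of a gene do not show whether its product is functional, so these levels check no label.

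Of the genes used for sorting, Itga2b was lower on plates 7 and 8 than on each of the 6 other E8.5 plates, and Kdr was lower than on 4 of them. Kdr, the VEGF receptor of endothelial progenitors, was at 1.19 CPM on plate 7 and 7.87 CPM on plate 8, against 1385, 1047, 220 and 521 CPM on plates 3, 4, 5 and 6, and 0.447 and 0.671 CPM on plates 1 and 2. Itga2b, which encodes CD41, was at 0.0509 and 0.0270 CPM on plates 7 and 8 (3 and 2 reads), and between 43.99 and 678 CPM on plates 1 to 6. The 7 markers of blood progenitors and leukocytes summed to 13.3 and 1.08 CPM, with 3 and 4 of them at 0, against 64.7 to 2034 CPM on the other plates. For the 9 endothelial markers the sums were 12.9 and 46.2 CPM, against 211 to 4947 CPM. The germ layer markers showed the opposite order: Sox2 stayed at or under 0.565 CPM, Wnt6 at or under 14.3 CPM and Cdx4 at or under 10.3 CPM on plates 1 to 6, all below their level on either of plates 7 and 8. Meox1 was the exception, since plate 3 (23.1 CPM) was close to plate 7 (23.2 CPM) and above plate 8 (8.95 CPM).

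**Figure D1:**
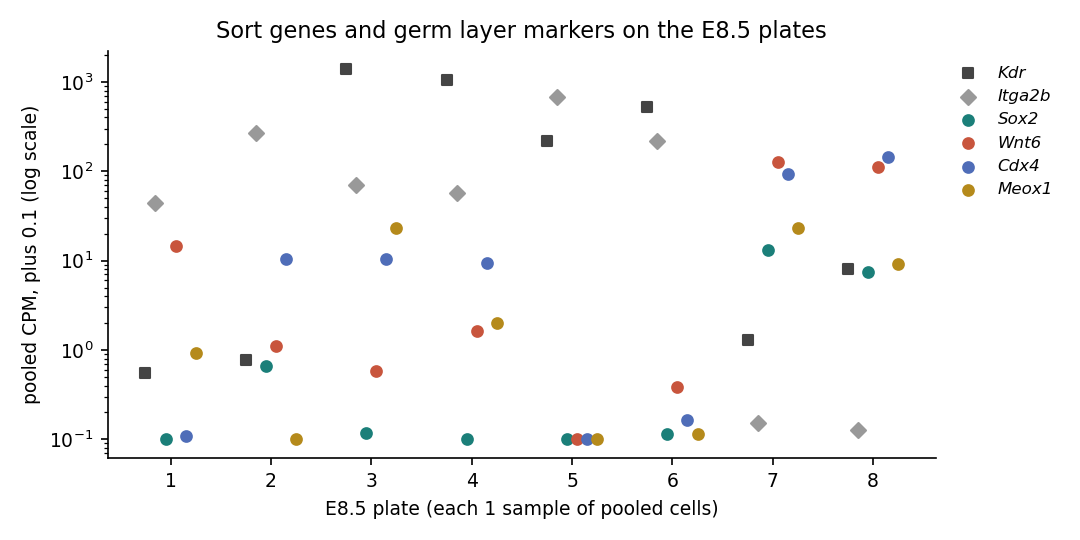
Pooled level of Kdr and Itga2b (squares and diamonds) and of Sox2, Wnt6, Cdx4 and Meox1 (circles) on each of the 8 E8.5 plates, in CPM with 0.1 added, on a log axis; each point is 1 plate. Kdr is at 7.87 CPM or less and Itga2b near 0 on plates 7 and 8, where Sox2, Wnt6 and Cdx4 reach their highest values.

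Among the 4 markers, Meox1 and Sox2 were higher on plate 7, Cdx4 was higher on plate 8, and Wnt6 was nearly level. These are levels of the reads of all kept cells of a plate added together, and shares are cells with a read of the gene after each cell was thinned to 100000 reads. The 95% intervals are exact Poisson intervals for levels and exact Clopper-Pearson intervals for shares. They cover counting error only, since the libraries carry no molecular identifiers and each plate is 1 sample.

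Sox2, a transcription factor of neural progenitors (GRCm38 chromosome 3, 34650405 to 34652461, plus strand), was at 13.01 CPM (12.1 to 13.96) on plate 7 and 7.37 CPM (6.77 to 8.02) on plate 8. It was read in 22 cells of plate 7, or 25% (16.4% to 35.4%), and in 13 cells of plate 8, or 14.8% (8.11% to 23.9%). The cells with a read had a median of 24.5 CPM on plate 7 and 46.6 CPM on plate 8, and the highest single cell was on plate 8, at 509 CPM. Plate 7 thus held more cells with Sox2 reads, at a lower median level. Many of these cells had only 1 or 2 reads after thinning, and with at least 3 reads required the plates were nearly level. The order of the plates turned when every cell was given equal weight (log2 ratio of plate 8 over plate 7 of 0.21, against -0.74 for the pooled reads). On plate 7, 83.7% of the Sox2 reads came from the neural ectoderm-like cells described below, and on plate 8, 63.004% came from them and 25.5% from caudal progenitor-like cells.

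Wnt6, a secreted ligand of the surface ectoderm (chromosome 1, 74771892 to 74785322, plus strand), was at 128 CPM (125 to 131) on plate 7 and 110 CPM (108 to 113) on plate 8. It was read in 23 cells of plate 7, or 26.1% (17.3% to 36.6%), and in 32 cells of plate 8, or 36.4% (26.4% to 47.3%). The median level in these cells was 351 CPM on plate 7 and 131 CPM on plate 8. More cells of plate 8 therefore had Wnt6 reads, and the cells with reads on plate 7 had more of them. Without the cell with the most Wnt6 reads on plate 7, which gave 21.9% of them, the log2 ratio went from -0.21 to 0.10, so the pooled order rests on 1 cell.

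Cdx4, a homeobox gene of the caudal embryo (chromosome X, 103321398 to 103330592, plus strand), was at 93.9 CPM (91.5 to 96.4) on plate 7 and 146 CPM (143 to 148) on plate 8. It was read in 18 cells of plate 7, or 20.5% (12.6% to 30.4%), and in 17 cells of plate 8, or 19.3% (11.7% to 29.1%). A single cell of plate 8 gave 33.2% of that plate's Cdx4 reads, and without it the pooled level there was 99.0 CPM and the log2 ratio went from 0.63 to 0.08. The plates thus held nearly the same number of cells with Cdx4 reads, and most of the pooled difference came from 1 cell.

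Meox1, a homeobox gene of the somites (chromosome 11, 101877510 to 101894374, minus strand), was at 23.2 CPM (21.97 to 24.4) on plate 7 and 8.95 CPM (8.28 to 9.66) on plate 8, which is 2.59-fold higher on plate 7. It was read in 16 cells of plate 7, or 18.2% (10.8% to 27.8%), and in 5 cells of plate 8, or 5.68% (1.87% to 12.8%). One cell of plate 8 gave 78.3% of its Meox1 reads, whereas the cell with the most reads on plate 7 gave 33.8%. Without that cell of plate 7 the log2 ratio went from -1.28 to -0.73, which is under 2-fold. The ratio ranged from -4.20 in wells of columns 1 to 6 to 0.95 in wells of columns 7 to 12, where the order was the reverse. On plate 7, 80.95% of the Meox1 reads came from the pharyngeal and cardiac mesoderm-like cells, whose cluster also counted 4 of 9 somitic markers. Of the 4 markers, a single one was read in 48 cells of plate 7 and 42 cells of plate 8. There were 2 or more in 15 and 12 cells, and none in 25 and 34 cells. The largest joint count of a pair was 6 cells on each plate. On plate 7 these were 6 of the 16 Meox1 cells, with Wnt6 reads, and on plate 8 they were 6 of the 13 Sox2 cells, also with Wnt6 reads. Whether the markers shared cells less often than independent reading would give was not tested.

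**Figure D2:**
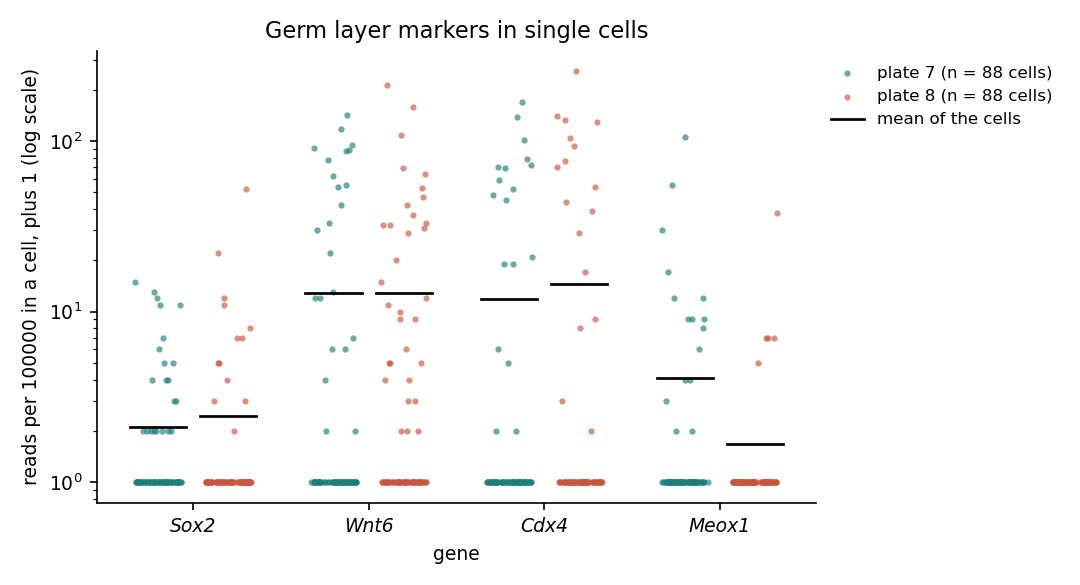
Reads of Sox2, Wnt6, Cdx4 and Meox1 in each of the 88 cells of plate 7 and the 88 cells of plate 8, per 100000 reads with 1 added, on a log axis; each point is 1 cell and the bar is the mean over the cells. Most cells lie at 0 reads for each gene, and a few cells on each plate carry most of the reads.

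Joint reads of Sox2 and T, the pair by which neuromesodermal progenitors are usually recognised, were found in 2 of 22 Sox2 cells of plate 7. On plate 8 they were found in 5 of 13 Sox2 cells. Whether these counts exceed what independent reading of the 2 genes would give was not tested, so they do not count such progenitors. T was read in 9 cells of plate 7 and 20 cells of plate 8, and 6 and 11 of these also had Cdx4 reads. Cdx2, a further caudal homeobox gene, was read in 26 cells of plate 7 and 44 cells of plate 8. Among the cells with Cdx4 reads, 14 of 18 on plate 7 and 16 of 17 on plate 8 also had Cdx2 reads. The wider count of Cdx2 cells on plate 8 was therefore made up mostly of cells without Cdx4 reads.

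Across all genes, 9947 had at least 10 CPM on either plate. Of these, 570 genes, or 5.73%, were at least 2-fold higher on plate 8 and 643 genes, or 6.46%, were at least 2-fold higher on plate 7, on the log2 scale with 1 CPM added. The median log2 ratio was -0.01. These shares are the background against which the counts of listed genes below are read. When the cell with the most reads of a gene on its higher plate was left out, 345 of the 570 and 388 of the 643 genes stayed past 2-fold. Among the genes past 2-fold, 1 cell gave most of the reads for 30 genes on plate 8 and 67 genes on plate 7. Without the wells in columns 11 and 12, the counts were 613 and 715 of 10001 genes.

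Clustering the 176 cells on both plates together gave 9 clusters, of which 6 could be named from their markers, as 5 classes. A marker counted for a cluster when at least 25% of its cells had a read and its mean level there reached 2 times the level in the remaining clusters. The markers that name a class are not findings about it. Neural ectoderm-like cells (8 of 13 neural markers counted) made up 18 cells of plate 7, or 20.5% (12.6% to 30.4%), and 7 cells of plate 8, or 7.95% (3.26% to 15.7%). Caudal progenitor-like cells (10 of 11 caudal and 7 of 9 presomitic markers) were 4 cells of plate 7, or 4.55% (1.25% to 11.2%), and 16 cells of plate 8, or 18.2% (10.8% to 27.8%). Surface ectoderm-like cells (10 of 13 markers) were 3 cells of plate 7, or 3.41% (0.709% to 9.64%), and 14 cells of plate 8, or 15.9% (8.98% to 25.2%). Of the 10 leading genes of this cluster, 0 were on the surface ectoderm list. An unnamed cluster of 25 and 8 cells, described below, also counted 10 of 13 of these markers. The measured neural share was thus the larger on plate 7 and the caudal and surface ectoderm shares the larger on plate 8, but the intervals of the plates overlap in each of these classes. The surface ectoderm order depends on which clusters took that name, and it turned with the clustering, as given below. The neural class also did not form in 6 of 17 other clusterings or well subsets, each time in a new clustering. Well subsets that kept the same clusters could not fail to form it.

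Mesoderm was divided in a like manner. Lateral plate and extraembryonic mesoderm-like cells were 10 cells of plate 7, or 11.4% (5.59% to 19.9%), and 23 cells of plate 8, or 26.1% (17.3% to 36.6%). This class joined a cluster with 8 of the 10 markers, which held 1 cell of plate 7 and 11 cells of plate 8, to a cluster with 3 of the 10 markers, which held 9 and 12 cells. In the latter, 16 of the 21 cells lay in columns 11 and 12. Without these columns the class was 2 of 74 cells of plate 7, or 2.70%, and 15 of 72 cells of plate 8, or 20.8%. Pharyngeal and cardiac mesoderm-like cells (8 of 11 markers, and 4 of 9 somitic markers as runner-up) were 18 cells of plate 7, or 20.5% (12.6% to 30.4%), and 11 cells of plate 8, or 12.5% (6.41% to 21.3%). The intervals overlap for both mesoderm classes. For the pharyngeal class the share was 13.04% on both plates in wells of columns 7 to 12, and at resolution 2 the order was the reverse, at 10.2% and 11.4%.

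**Figure D3:**
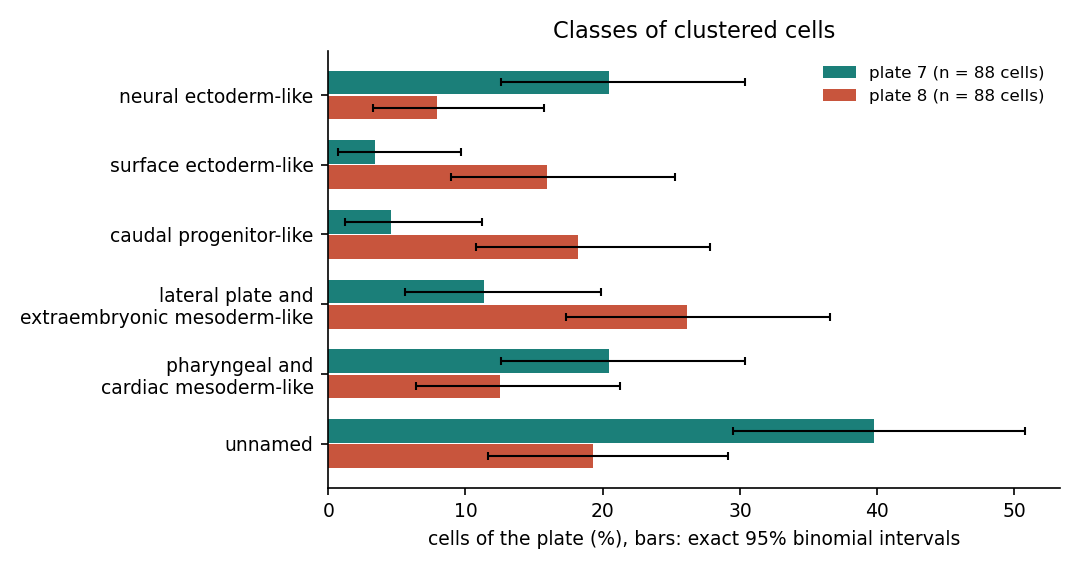
Share of the 88 cells of plate 7 and the 88 cells of plate 8 in each named class of clusters, in per cent; error bars are exact 95% binomial intervals and cover counting error only. Neural ectoderm-like cells were 20.5% of plate 7 and 7.95% of plate 8, and caudal progenitor-like cells 4.55% and 18.2%.

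The 3 other clusters stayed unnamed, with 35 cells of plate 7 and 17 of plate 8. The largest held 25 cells of plate 7, or 28.4% (19.3% to 39.02%), and 8 cells of plate 8, or 9.09% (4.01% to 17.1%). It had 10 of 13 surface ectoderm markers and 4 of 9 gut endoderm markers, and 4 of its 10 leading genes, Rbp4, Ttr, Apoa1 and Apom, are on the extraembryonic endoderm list, so it was given no name. On plate 7 it carried 68.5% of the Wnt6 reads, against 27.9% in the 3 surface ectoderm-like cells, and on plate 8 it carried 39.2%. With coarser clusters (Leiden resolution 0.5) the surface ectoderm-like share was 31.8% on plate 7 and 25% on plate 8, and with the cells of all 8 plates clustered together it was 30.7% and 26.1%. The order of the plates for surface ectoderm therefore turned with the clustering. A cluster of 5 cells of plate 7 and 7 of plate 8 was led by Cdx4, Cdx2 and Fendrr, with 4 caudal and 3 lateral plate markers, and carried 29.7% and 59.2% of the Cdx4 reads. The last, of 5 and 2 cells, counted 7 of 9 neural crest markers and 2 of 9 endothelial markers. Its 10 leading genes included Sox10, but 4 of them, Hbb-y, Hba-x, Hbb-bh1 and Alas2, are on the erythroid list, so it was given no name. Nearly all reads of these 3 globin genes on plate 7 came from 1 cell, as given below.

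A count that does not use the clusters is the share of cells with a read of at least 3 markers of a list after thinning. For the lateral plate and extraembryonic mesoderm list it was 20 cells of plate 7, or 22.7% (14.5% to 32.9%), and 48 cells of plate 8, or 54.5% (43.6% to 65.2%), and it ranged from 0% to 43.9% on the 6 other E8.5 plates. For the neural list it was 18 and 11 cells, or 20.5% and 12.5%, against at most 1.10% on the other plates. For the presomitic list it was 7 and 15 cells, against 0 on the other plates. For the somitic list it was 9 and 3 cells, or 10.2% and 3.41%, against 0% to 7.32% on the other plates. For the surface ectoderm list, which includes the widely read keratins Krt8 and Krt18, it was 54 and 64 cells. For the caudal list it was 29 cells, or 32.95% (23.3% to 43.8%), and 34 cells, or 38.6% (28.4% to 49.6%), which overlap. The other plates ranged from 0% to 32.9% for this list, the highest being plate 4, close to plate 7. The caudal list thus differed less by this count than the caudal class did by the clusters.

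Genes named from a list were among its 4 genes with the highest level or were chosen after their values were seen. In several lists some of these 4 genes, mostly within 2-fold, are left out, so the named genes do not represent a list. Neural genes with at least 10 CPM were 5 of the 13 listed, and 3 of them were past 2-fold in favour of plate 7 and none in favour of plate 8, with a median log2 ratio of -1.04. Irx3, a homeobox gene of the neural tube, was at 35.8 CPM on plate 7 and 13.4 CPM on plate 8, in 41 and 29 cells. Pax6, which patterns the neural tube and eye, was at 18.7 and 8.61 CPM, in 10 and 8 cells. Nkx6-1, a ventral neural tube gene, was at 12.4 and 2.36 CPM, with 48.2% of the plate 7 reads in 1 cell. Hes3 was at 10.7 and 12.5 CPM, and 76.5% of its reads on plate 7 came from 1 cell. The neural count in favour of plate 7 was 2 without the cell with the most reads of each gene. Of the 8 forebrain genes only Otx2, a homeobox gene of the forebrain and midbrain, reached 10 CPM, at 29.7 CPM on plate 7 and 12.2 CPM on plate 8, while Fezf1 had no read on plate 8 and was at 3.50 CPM on plate 7. The midbrain and hindbrain list was mixed. Of its 4 genes with at least 10 CPM among 9, 3 were past 2-fold in favour of plate 8, among them Gbx2 (7.96 and 21.97 CPM) and Egr2 (0.374 and 11.3 CPM). For Egr2, 98.3% of the plate 8 reads came from 1 cell, and without the cell with the most reads of each gene the count was 2. The 5 genes under 10 CPM were lower on plate 8, among them Pax8 (5.15 CPM and no read) and Pax2 (4.69 and 1.77 CPM).

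Of the 13 surface ectoderm genes 11 reached 10 CPM, and 2 were past 2-fold in favour of plate 7 and 1 in favour of plate 8, with a median log2 ratio of -0.21. The simple epithelial keratins Krt8 (846 and 971 CPM) and Krt18 (702 and 815 CPM) were close on the plates. The adhesion molecule Epcam was at 199 CPM on plate 7 and 113 CPM on plate 8, in 36 and 33 cells. The tight junction gene Cldn4 (118 and 40.9 CPM) and Krt19 (83.95 and 40.8 CPM) were past 2-fold in favour of plate 7, and the homeobox gene Dlx5 (4.92 and 14.2 CPM) in favour of plate 8. The list is thus mixed. Of the 7 neural crest genes with at least 10 CPM among 9, Snai2, a repressor of epithelial genes, was at 13.4 and 95.6 CPM, in 23 and 45 cells. Dlx2 was at 5.82 and 23.5 CPM and Sox10, which marks migrating crest, at 27.5 and 6.97 CPM, but 1 cell gave 62.1% of the Dlx2 reads on plate 8 and 52.4% of the Sox10 reads on plate 7.

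All 11 caudal progenitor genes reached 10 CPM, of which 4 were past 2-fold in favour of plate 8 and 1 in favour of plate 7, with a median log2 ratio of 0.63. Cdx2 was at 58.3 CPM on plate 7 and 214 CPM on plate 8. T, the brachyury gene of the primitive streak, was at 16.3 and 50.5 CPM. Nkx1-2, a gene of the caudal lateral epiblast, was at 8.05 and 50.3 CPM, in 10 and 18 cells, and the growth factor Fgf8 at 16.5 and 43.8 CPM, in 12 and 22 cells. Greb1 was nearly level, at 93.1 and 80.9 CPM. Cyp26a1, which breaks down retinoic acid, went the other way, at 48.3 and 5.70 CPM, with 48.03% of the plate 7 reads in 1 cell. Without the cell with the most reads of each gene the caudal counts were 3 on plate 8 and 1 on plate 7.

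Of the 9 presomitic genes 6 reached 10 CPM and 5 of these were past 2-fold in favour of plate 8, with a median log2 ratio of 1.67. The Notch ligand Dll3 was at 16.96 CPM on plate 7 and 72.5 CPM on plate 8, the Wnt agonist Rspo3 at 14.96 and 58.6 CPM, the transcription factor Msgn1 at 16.03 and 44.9 CPM, and Dll1 at 14.5 and 34.6 CPM. Rspo3 was the most widely read of them, in 19 and 40 cells, and Msgn1 the least, in 4 and 9 cells. Without the cell with the most reads of each gene the count was 3. Of the somitic list, 4 of 9 genes reached 10 CPM and 2 of these were past 2-fold in favour of plate 7. Aldh1a2, which makes retinoic acid, was at 112 and 29.3 CPM and Meox1 was as given above. Fst, an activin antagonist, was at 64.03 and 55.9 CPM and Foxc2 at 11.8 and 11.4 CPM. The 2 genes past 2-fold became 1 without the cell with the most reads of each gene. Of the 6 intermediate mesoderm genes, Osr1 (15.5 and 3.96 CPM) and Wt1 (0.832 and 11.6 CPM) reached 10 CPM and differed in opposite directions.

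The lateral plate and extraembryonic mesoderm genes were mostly higher on plate 8. Of the 9 genes of the list with at least 10 CPM, 8 were past 2-fold and none in favour of plate 7, with a median log2 ratio of 2.15, and the count was 7 without the cell with the most reads of each gene and 8 without columns 11 and 12. Hand1, a transcription factor of lateral and extraembryonic mesoderm, was at 43.1 CPM on plate 7 and 289 CPM on plate 8, in 16 and 41 cells. Postn, the matrix protein periostin, was at 14.03 and 288 CPM, in 9 and 20 cells, with 46.2% of the plate 8 reads in 1 cell. The ligand Bmp4 was at 66.5 and 211 CPM, in 31 and 52 cells, and Tbx20 at 19.3 and 117 CPM, in 12 and 30 cells. The 10 genes summed to 260 CPM on plate 7 and 1177 CPM on plate 8, against 17.4 to 388 CPM on the other E8.5 plates.

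Pharyngeal and cardiac genes split evenly. Of 6 with at least 10 CPM among 11, 2 were past 2-fold in each direction, with a median log2 ratio of -0.19. Myl7, an atrial myosin light chain, was at 208 CPM on plate 7 and 86.5 CPM on plate 8, and Tnnt2, cardiac troponin T, at 75.4 and 42.4 CPM. Tbx1, a pharyngeal mesoderm gene, was at 33.8 and 2.50 CPM, in 13 and 5 cells. Fgf10, a growth factor of the second heart field and limb field, was at 7.15 and 26.1 CPM, and Hand2 at 2.45 and 10.01 CPM, in 8 and 28 cells.

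Extraembryonic endoderm genes were higher on plate 7, in at most 11 cells each. All 6 extraembryonic endoderm genes were past 2-fold in favour of plate 7, and 5 without the cell with the most reads of each gene. Rbp4, the retinol carrier, was at 488 CPM on plate 7 and 2.92 CPM on plate 8, in 10 and 5 cells. Ttr, transthyretin, was at 175 and 3.74 CPM, in 11 and 4 cells, and the apolipoproteins Apoa1 (53.3 and 2.43 CPM) and Apom (43.9 and 1.07 CPM) were each read in 4 cells of plate 7. On plate 7, the cell with the most reads of the gene gave 54.3% for Rbp4, 89.2% for Apoa1 and 71.8% for Apom. Of the 5 gut genes with at least 10 CPM among 9, 4 were past 2-fold in favour of plate 7 and Trh, whose plate 8 reads came to 97.6% from 1 cell, in favour of plate 8. Cldn6, a tight junction gene, was at 617 and 182 CPM, in 37 and 26 cells, and Shh, the hedgehog ligand of notochord, floor plate and gut, was at 21.1 and 3.20 CPM. The erythroid genes Hbb-y (2317 and 0.0135 CPM), Hba-x (1509 and 1.47 CPM) and Hbb-bh1 (999.5 and 2.32 CPM) had 99.8% to 99.9% of their plate 7 reads in 1 cell each, so that the sum over the 7 erythroid genes, 4892 CPM against 6.54 CPM, does not describe the plate. The notochord genes T and Shh, the only ones of 7 with at least 10 CPM, were ordered in opposite directions. The lists of megakaryocyte, extraembryonic ectoderm, primordial germ cell and epiblast genes held at most 3 genes with at least 10 CPM each.

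**Figure D4:**
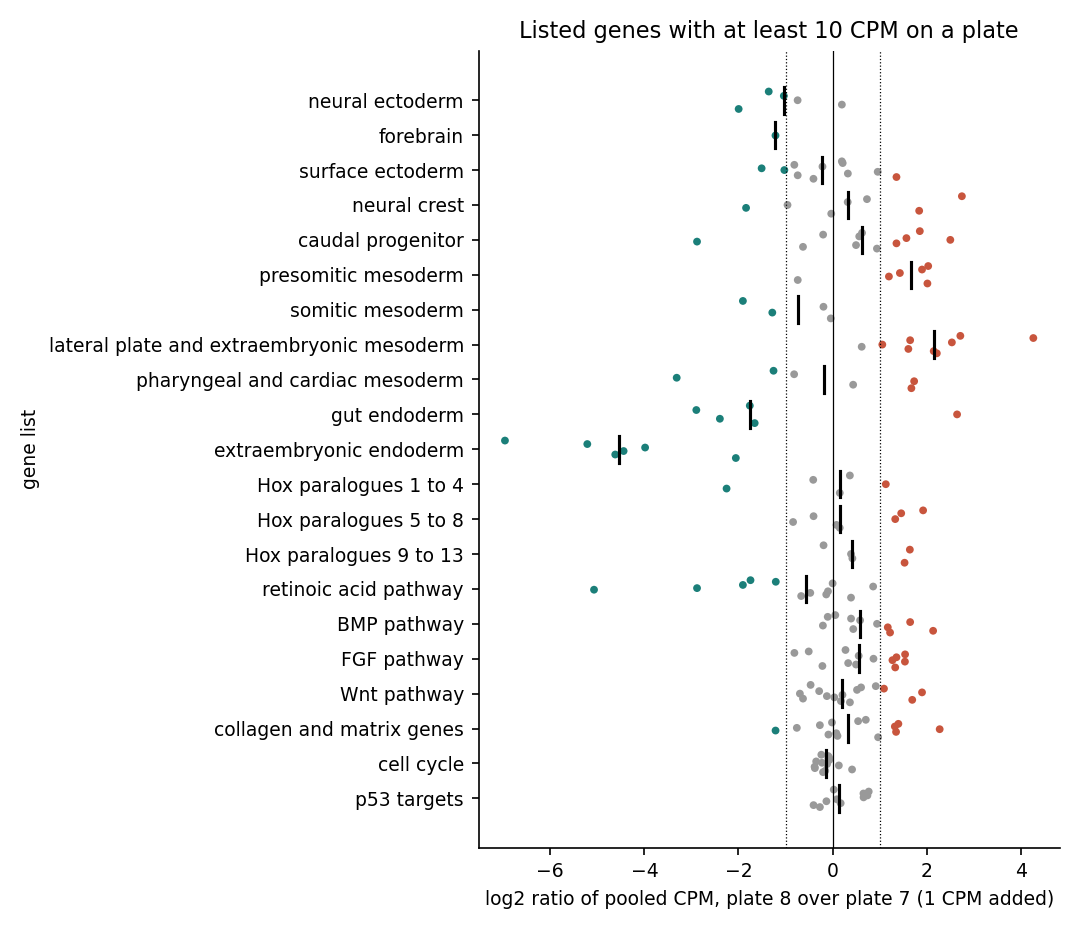
Log2 ratio of pooled CPM of plate 8 over plate 7, with 1 CPM added, for each listed gene with at least 10 CPM on either plate; each point is 1 gene, black bars are list medians, dotted lines mark 2-fold, and colours mark genes past it. The lateral plate and extraembryonic mesoderm list has a median of 2.15 and the extraembryonic endoderm list of -4.53, while cell cycle genes lie within 2-fold.

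The Hox genes, whose order along their clusters follows the order of their expression along the body, were read on both plates. The anterior paralogues 1 to 4 summed to 207 CPM on plate 7 and 220 CPM on plate 8, paralogues 5 to 8 to 103 and 161 CPM, and paralogues 9 to 13 to 109 and 149 CPM. Of paralogues 5 to 8, 3 of 7 genes with at least 10 CPM were past 2-fold in favour of plate 8: Hoxc8 (8.54 and 35.2 CPM, in 18 and 39 cells), Hoxb6 (11.8 and 34.1 CPM, in 22 and 40 cells) and Hoxb7 (7.30 and 19.9 CPM). Of paralogues 9 to 13, Hoxc9 (8.29 and 28.01 CPM) and Hoxd9 (4.96 and 16.2 CPM) were 2 of 5. These counts were again 3 and 2 without the cell with the most reads of each gene. Others of the same paralogue groups were close, with Hoxb9 at 41.2 and 35.96 CPM and Hoxa5 at 14.3 and 15.2 CPM. The genes past 2-fold thus included 2 of the Hoxc cluster, and among paralogues 1 to 4 Hoxd1 (12.5 and 28.7 CPM) and Hoxd3 (19.6 and 3.32 CPM) differed in opposite directions.

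Of the signalling lists, retinoic acid genes were ordered in favour of plate 7 and BMP and FGF genes in favour of plate 8. These lists share genes with the cell type lists above, so their counts are not separate results. Among those shared are Aldh1a2 (somitic), Cyp26a1 and Fgf8 (caudal) and Bmp4 (lateral plate). Dll1, Dll3, Hes7 and Rspo3 are also on the presomitic list. Of 12 retinoic acid genes with at least 10 CPM, 5 were past 2-fold on plate 7 and none on plate 8, and the count was again 5 without the cell with the most reads of each gene. The binding proteins Crabp1 (916 and 273 CPM) and Crabp2 (758 and 328 CPM) were read in 70 to 74 cells of each plate. The degrading enzyme Cyp26c1 (37.6 and 0.149 CPM) was read in 6 cells of plate 7 and 1 of plate 8, with 72.6% of its plate 7 reads in 1 cell. Of 11 BMP genes, 4 were past 2-fold on plate 8 and none on plate 7. Besides Bmp4 these were Bmp2 (19.02 and 44.2 CPM) and the inhibitory Smads Smad6 (3.82 and 20.2 CPM, in 16 and 35 cells) and Smad7 (5.64 and 14.5 CPM, in 16 and 30 cells). The BMP target genes Id1, Id2 and Id3 were within 2-fold, with Id3 at 805 and 838 CPM. Of 13 FGF genes, 5 were past 2-fold on plate 8, among them the receptor Fgfr3 (32.1 and 95.3 CPM) and the target Etv4 (9.98 and 30.9 CPM), while Fgfr1 (146 and 177 CPM) and Dusp6 (160 and 113 CPM) were within it. Without the cell with the most reads of each gene the counts on plate 8 were 3 for BMP and 4 for FGF genes.

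Of 15 Wnt genes, 3 were past 2-fold on plate 8: Lef1 (35.6 and 77.1 CPM), Rspo3 and Wnt8a (4.11 and 15.5 CPM). The targets Axin2 (38.02 and 23.1 CPM) and Sp5 (23.8 and 21.8 CPM) were within it. The Wnt count was 2 without the cell with the most reads of each gene. Of 10 Notch genes, 4 were past 2-fold on plate 8, namely Dll3, Dll1, Hey1 (15.5 and 38.4 CPM) and Hes7 (2.41 and 12.8 CPM), and Hes5 (15.4 and 6.48 CPM) on plate 7. Without the cell with the most reads of each gene the counts were 2 and 0. Of 7 hedgehog genes, Boc (16.3 and 39.4 CPM) was past it on plate 8 and Shh on plate 7, and the target Ptch1 was close, at 131 and 141 CPM.

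Of 14 matrix genes, 4 were past 2-fold on plate 8: Col1a1 (24.6 and 123 CPM), Col3a1 (81.4 and 216 CPM), Col1a2 (59.9 and 151 CPM) and Nid1 (42.01 and 109 CPM). One cell gave 60.04% of the Col1a1 reads of plate 8, and without the cell with the most reads of each gene the count was 2. The basement membrane collagen Col4a2 (115 and 49.3 CPM) was past 2-fold on plate 7, and within it without columns 11 and 12. Of 16 epithelial and mesenchymal genes, Fn1, which encodes fibronectin (275 and 723 CPM), Snai2 and Snai1 (32.6 and 68.4 CPM) were past 2-fold on plate 8, and the epithelial genes Cldn6, Cldn7 (84.1 and 22.4 CPM) and Crb3 (24.7 and 8.30 CPM) on plate 7. Cdh1 was within it, at 58.3 and 42.5 CPM.

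None of 14 cell cycle genes, of 10 p53 target genes or of 8 DNA methylation enzymes was past 2-fold in either direction. Pcna was read in all 88 cells of both plates, at 379 CPM on plate 7 and 298 CPM on plate 8, and Mki67 was at 223 and 171 CPM. The p53 targets Ccng1 (68.4 and 117 CPM) and Phlda3 (52.2 and 87.9 CPM) were within 2-fold, as were Dnmt1 (190 and 198 CPM), Uhrf1 (332 and 333 CPM) and Dnmt3b (126 and 215 CPM). Of 9 immediate-early and stress genes, Fos (15.2 and 67.2 CPM, in 14 and 20 cells), Egr1 (9.44 and 55.98 CPM) and Hspa1a (1.68 and 14.2 CPM) were past 2-fold on plate 8 and Atf3 (20.9 and 7.29 CPM) on plate 7. Ier2 was level, at 203 and 209 CPM. These genes respond to dissociation, whose part in the differences was not tested.

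The 12 genes with the largest ratios in favour of plate 8 among those read in at least 10 cells differed in how widely they were read. Some were read in a minority of cells: Tek, the angiopoietin receptor (0.187 and 30.03 CPM, in 1 and 11 cells), Postn, the cyclooxygenase Ptgs2 (0.289 and 15.9 CPM, in 1 and 10 cells) and the amino acid transporter Slc43a2 (1.12 and 24.7 CPM, in 4 and 12 cells). For Tek, 56.1% of the plate 8 reads came from 1 cell. Others were read over most of the plate: Slc7a11, the cystine and glutamate exchanger, was at 2.87 and 47.8 CPM and was read in 7 cells of plate 7 and 82 cells of plate 8. The processed pseudogenes BC002163 (2 and 78 cells), AC131675.2 (6 and 82 cells), Atp6v0c-ps2 (6 and 76 cells), AC125456.1 (2 and 66 cells) and Pcna-ps2 (16 and 78 cells) were of this kind. Fmr1nb, read in no cell of plate 7 and 34 cells of plate 8 (0.0509 and 38.6 CPM), and Zfp990, read in 0 and 19 cells (0.102 and 11.005 CPM), lay between.

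In favour of plate 7, the 12 genes with the largest ratios were Xist, Rbp4, Ttr, Kdm5d, Dpp4, Clic6, Minar2, Fez1, Actn2, Sdsl, Plvap and Slc38a5. Xist, the RNA that coats the inactive X chromosome, was at 129 CPM on plate 7, in 31 of 88 cells, or 35.2% (25.3% to 46.1%). On plate 8 it had no read in 88 cells, which at a limit of 3 counts allows a level of up to 0.0405 CPM, and a share of cells with a read of up to 3.41%. Kdm5d, a Y-linked demethylase, was at 32.6 CPM on plate 7, in 29 cells, and also had no read on plate 8. Of the other Y-linked genes, Eif2s3y was at 48.3 and 8.99 CPM, Ddx3y at 28.5 and 2.31 CPM, and Uty at 16.8 and 8.17 CPM, and these genes have X-linked near copies, so low values are uncertain. Neither Minar2 nor Sdsl had a read on plate 8, and they were read in 16 and 19 cells of plate 7, at 14.1 and 12.7 CPM. Clic6 (24.2 and 0.608 CPM, in 16 and 4 cells) and Fez1 (28.1 and 0.945 CPM, in 13 and 3 cells) were spread over several cells, whereas 65.02% of the Dpp4 reads and 61.6% of the Actn2 reads of plate 7 came from 1 cell.

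By cell, 27 cells of plate 7 had Xist reads without reads of the 4 Y-linked genes, 55 had Y-linked reads without Xist, 4 had both and 2 had neither. On plate 8, 21 cells had Y-linked reads, none had Xist reads and 67 had neither. The same division ran through the other E8.5 plates: Xist was between 67.3 and 194 CPM on plates 1, 3 and 5 and between 0 and 7.55 CPM on plates 2, 4 and 6. Between 2 and 5 cells had neither kind of read on plates 1, 3 and 5, against 59 to 68 cells on plates 2, 4 and 6. Of the 4 Y-linked genes on plate 8, Uty was read in 16 cells, Eif2s3y in 7, Ddx3y in 4 and Kdm5d in none. Uty was read in 17.6% to 29.9% of the cells of every E8.5 plate, odd or even. The labels give neither the sex nor the genotype of the cells of a plate, and cell source and plate cannot be told apart here.

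A set of genes was read in most cells of 1 plate and few of the other. Of the 9947 genes, 9 (0.0905%) were read in at least 80% of the cells of plate 8 and at most 20% of those of plate 7, and 1 (0.0101%) was the reverse. The 10 genes comprise 8 processed pseudogenes, the long non-coding RNA gene Gm7125 and Slc7a11, and the Gm genes are named here after their values were seen. The reverse gene was the pseudogene Gm8960, read in 85 cells of plate 7 and 6 cells of plate 8. For 8 of the 9, every even-numbered E8.5 plate was above every odd-numbered one by at least 2-fold, and Gm8960 had each odd-numbered plate above each even-numbered one. BC002163, for example, was at 29.3 to 37.5 CPM on plates 2, 4, 6 and 8 and at 0.136 to 0.656 CPM on plates 1, 3, 5 and 7. Slc7a11 was the exception, at 2.05 CPM on plate 2 and 10.8 CPM on plate 6, against 39.1 and 47.8 CPM on plates 4 and 8. Rps3a3, a ribosomal protein pseudogene chosen after its values were seen, was at 8.81 CPM on plate 7 and 919 CPM on plate 8, with reads in 33 and 88 cells, and at 736 to 999 CPM on the even-numbered plates against 3.82 to 8.81 CPM on the odd-numbered ones. Reads of a processed pseudogene can be shared with its parent gene, so these levels are uncertain. Clustering without Xist, Y-linked genes and pseudogenes left the order of the caudal (11.4% and 26.1%), lateral plate (11.4% and 26.1%), surface ectoderm (3.41% and 15.9%) and pharyngeal (20.5% and 12.5%) shares as it was, and no cluster then met the rule for neural ectoderm.

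**Figure D5:**
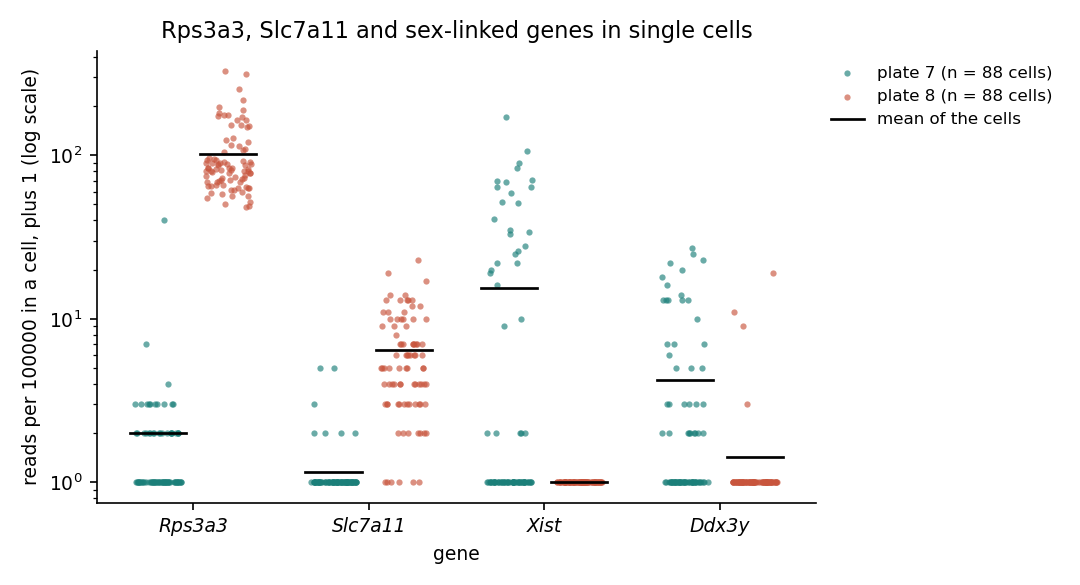
Reads of Rps3a3, Slc7a11, Xist and Ddx3y in each of the 88 cells of plate 7 and the 88 cells of plate 8, per 100000 reads with 1 added, on a log axis; each point is 1 cell and the bar is the mean over the cells. Rps3a3 was read in all 88 cells of plate 8 and in 33 of plate 7, and Xist in 31 cells of plate 7 and in none of plate 8.

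Within the pharyngeal and cardiac mesoderm-like class, which had 18 cells on plate 7 and 11 on plate 8 in a single cluster, 9687 genes reached 10 CPM. Of these, 1503, or 15.5%, were at least 2-fold higher on plate 8 and 1656, or 17.1%, on plate 7, and 299 and 380 of them were also past 2-fold in the whole plates. The 6 largest ratios in favour of plate 8 again included plate-wide genes, namely Slc7a11 (0.287 and 37.5 CPM, in 1 and 10 cells), BC002163 (0 and 11 cells) and AC131675.2 (1 and 9 cells), beside Polm, Wdfy1 and Zfp160. Wdfy1 was at 0.670 and 42.6 CPM, in 1 and 10 cells. In favour of plate 7 they were Fst (245 CPM, in 6 cells), Xist (95.1 CPM, in 5 cells), Sparcl1, Efemp1, Itprip and Ttyh2 (43.9 to 65.1 CPM for these 4), all without a read in the 11 cells of plate 8. Fst is on the somitic list, of which this cluster counted 4 of 9 markers. The cluster held 80.95% of the Meox1 reads of plate 7 and 2.11% of those of plate 8, so its ratios need not compare cells of the same type.

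The lateral plate and extraembryonic mesoderm-like class had 10 and 23 cells, of which 9 and 12 were in the cluster with fewer markers, and 8 of the 10 cells of plate 7 lay in columns 11 and 12. Without those columns the class had 2 and 15 cells, and its ratios are given only with them. The ratios thus compare unlike wells and an unlike mix of clusters. Of 9739 genes, 2581, or 26.5%, were at least 2-fold higher on plate 8 and 1685, or 17.3%, on plate 7. Slc7a11 (0.222 and 72.9 CPM, in 1 and 22 cells) and Xist (281 CPM in 5 cells, and no read) were again among the largest ratios. Fos (no read, and 195 CPM in 11 cells), Spon2 (115 CPM in 10 cells), Igfbp3 (69.8 CPM in 11 cells) and the apelin receptor Aplnr (2.44 and 199 CPM, in 2 and 12 cells) were others in favour of plate 8. With so few cells the class values describe these cells alone.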

How the data were processed

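Single-cell RNA was prepared by Smart-seq2 within scNMT-seq and read as 75 bp single ends. Per the submitters' processing notes in the labels, the authors used HISAT2 2.1.0, featureCounts and GRCm38, and the authors deposited counts of reads for each gene in each cell, without molecular identifiers. The table holds 55487 genes and 1824 cells, and its columns carry the sample titles. Symbols came from a table of gene names and positions from GENCODE M21 (GRCm38), each for 55141 genes, and where gene IDs shared a symbol the ID with the most reads kept it.

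Cells of the E8.5 plates 7 and 8 with at least 100000 reads were kept, without a doublet caller, and plates 1 to 6 served as a description beside them. Reads were summed per plate, scaled to CPM of all counted reads, and compared as log2 ratios of plate 8 over plate 7 with 1 CPM added, for genes with at least 10 CPM on either plate. A gene past the fold has an absolute log2 ratio of at least 1. Each plate is 1 sample, so no p-value was computed. Depth was 123650 to 2045039 reads per cell on plate 7 and 105644 to 3544173 on plate 8, 58890514 and 74057142 in all. For genes without a read, 3 counts of the plate's total or 3 cells set the limit.

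Clusters were made with scanpy 1.11.5 (log of counts per 10000, 2000 variable genes, 30 components, 15 neighbours, Leiden resolution 1, seed 0). A cluster took the name of the list with the largest share of counted markers, if at least 3 counted, if the runner-up was not within 1 counted marker, and if no other list had more genes among its 10 leading genes. This naming rule was set after the clusters were first seen. The members and gene lists were chosen with earlier results of these data known. Named genes were the 4 markers, the 12 largest ratios in each direction among genes read in at least 10 cells of the higher plate, up to 4 genes per list with the highest levels, and the 6 largest ratios in each direction within a class among genes read in at least 5 cells. Symbols of Gm with digits, those ending in Rik and ribosomal protein genes were counted but not named. For several lists some of the 4 genes with the highest levels are not given. Other listed genes past the fold, and genes outside this rule, were chosen after their values were seen. Ratios and thinning were tested on simulated data. The simulated cells of a group shared the same expression profile, so the test does not cover genes whose reads lie mostly in a few cells. Alternatives included TMM (edgeR 4.0.16) and DESeq2 1.42.0 size factors. A few listed genes are not reported here.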

Additional observations from a re-analysis of the deposited data

How the results depend on the processing

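No paired analysis was possible because no test was made and the plates carry no replicate numbers. Pooled log2 ratios of the markers turned in sign: Sox2 to 0.21 with the mean of the cells' CPM, 0.37 with thinned cells and 0.50 in rows E to H, Wnt6 to 0.0895, 0.0110 and, in rows A to D, 3.15, and 0.10 without its top cell, Cdx4 to -0.0772 in columns 1 to 6, and Meox1 to 0.95 in columns 7 to 12. Genes past 2-fold on plate 8 and plate 7 numbered 969 and 1060 in columns 1 to 6, 935 and 971 in rows E to H, 248 and 238 with 10 CPM added, 1284 and 1937 without a filter, 168 and 101 at 50 CPM, and 346 and 397 with each gene's top cell left out. With the mean of the cells' CPM they were 378 on plate 8. Of the genes past 2-fold, 46.99% were higher on plate 8, 52.7% with DESeq2 size factors and 62.5% at 50 CPM. Members were 95 on plate 7 with 4000 reads, and 65 and 62 with 300000. On plate 7 the Sox2 share was 13.6% at 3 reads, nearly level with plate 8, and the Wnt6 share was 16.3% in rows A to D.

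Among 17 other clusterings or well subsets, the caudal and lateral plate shares kept their order in all, and neural in the 11 that formed the class. Well subsets that kept the same clusters are parts of the main result and could not fail to form a class. All 6 settings without a neural class were new clusterings. Neural was 0% on both plates at resolution 0.5, with 1000 or 4000 variable genes, with the mitochondrial and ribosomal limits, and in re-clusterings without columns 11 and 12 or without Xist, Y-linked genes and pseudogenes. That last also gave 11.4% caudal on plate 7. The pharyngeal share was 36.4% and 34.1% at resolution 0.5, 10.2% and 11.4% at resolution 2, where the order reversed, 35.2% and 27.3% with all E8.5 cells, 22.6% on plate 8 at 300000 reads, and 0% when the 2% of cells with the highest depth were dropped. The surface ectoderm share on plate 7 was 31.8% at resolution 0.5, 14.8% at resolution 2, 30.7% with all E8.5 cells (26.1% on plate 8) and 0% in rows A to D. The lateral plate share was 1.14% and 12.5% at resolution 0.5, with 4000 variable genes and centred within plates, and 0% and 14.5% at 300000 reads. On plate 7 it was 2.27% for 3 choices (1000 variable genes, resolution 2, all E8.5 cells), 0% in columns 1 to 6, 21.7% in columns 7 to 12 and 2.70% without columns 11 and 12. The causes were not tested. Choices on columns 11 and 12, Xist and pseudogenes, plate centring, the Leiden implementation and each gene's top cell across all genes were made after seeing the data. Depth limits genes with few reads, and 1 plate on each side limits all values.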
